A study of Rattus norvegicus with 2 samples.

Results

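Liver and gut miRNAs were examined in exosomes that neonatal rat cardiomyocytes released into their culture medium. The rows of the deposited count table named for miR-122, miR-192, miR-194 or miR-215, on any arm, were taken. They were 5 of the 635 rows, listed with the mouse prefix as mmu-miR-122-5p, mmu-miR-192-5p, mmu-miR-194-5p, mmu-miR-215-5p and mmu-miR-215-3p and named without it below. The first 4 reached 10 reads when both libraries were added, as did 340 of the 635 rows, and miR-215-3p had 2 reads in all. The rows were chosen by name, with their reads in both libraries already known, so their levels and ratios are given as descriptions with no test.

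Cardiomyocytes were prepared from hearts of Wistar rats 1 to 2 days old, enriched by differential adhesion and cultured with bromodeoxyuridine. After serum starvation, they were kept for 48 h without angiotensin II (Ang II), a peptide hormone that enlarges cardiomyocytes, to give NC-Exo. The cells behind HC-Exo received 1 μmol/L Ang II over the same time. Exosomes, the small vesicles that cells secrete, were collected from the medium with an exosome isolation reagent, and their small RNA was sequenced in 1 library per condition. An effect of Ang II and a difference between the 2 cultures or libraries cannot be told apart. The miRNA reads numbered 102608 in NC-Exo and 133155 in HC-Exo. Levels are given as RPM, reads per 1000000 miRNA reads, and a single read was worth 9.75 RPM for NC-Exo and 7.51 RPM for HC-Exo. Of the 7 muscle markers, all had reads in both libraries, and miR-1a-3p ranked first in each.

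A miRNA is cut from a hairpin precursor, and bases 2 to 8 of the mature strand, the seed, are the main part that pairs with target mRNAs. The liver is known for a very high level of miR-122. The gut epithelium, kidney and liver are known for miR-192, miR-194 and miR-215, which lie in pairs in the genome and are induced by the tumour suppressor p53. miR-192 and miR-215 form a family by their common seed, whereas miR-194 has a seed of its own and is a neighbour of both.

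The mature rat sequences of these neighbours are shown to make clear which rows share a seed and which are distinct, with the seed in capitals. They are from RefSeq on the GRCr8 rat build.
rno-miR-192-5p: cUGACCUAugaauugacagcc
rno-miR-215: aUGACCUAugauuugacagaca
rno-miR-194-5p: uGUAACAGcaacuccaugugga
RefSeq gives the mature miR-215 without an arm in its name, and its place in the 5′ part of the hairpin makes it the counterpart of the row miR-215-5p. Among the 693 mature rat miRNAs in that table, no other carried the seed UGACCUA, and no other carried the miR-194 seed GUAACAG. Over the 21 positions that miR-192-5p and miR-215 have in common, counted from the 5′ end, 18 bases were identical. The differences were C1A, A12U and C20A, with the base of miR-192-5p first, and miR-215 had 1 further base at the 3′ end. By edit distance, miR-215 was the nearest mature sequence to miR-192-5p, at 4 edits, and the next was at 7. The nearest sequence to miR-194-5p was at 8 edits.

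The 4 hairpins follow, with the mature 5p strand in capitals, because miR-194-5p is made from 2 of them. All 4 lie on the plus strand of GRCr8.
Mir192, chr1:212994209-212994318: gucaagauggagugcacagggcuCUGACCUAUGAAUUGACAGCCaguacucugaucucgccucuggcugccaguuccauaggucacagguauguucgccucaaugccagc
Mir194-2, chr1:212994024-212994108: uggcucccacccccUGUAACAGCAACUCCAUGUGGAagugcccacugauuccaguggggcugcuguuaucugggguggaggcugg
Mir215, chr13:99382990-99383086: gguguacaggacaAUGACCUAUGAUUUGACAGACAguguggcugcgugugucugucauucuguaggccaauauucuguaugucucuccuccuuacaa
Mir194-1, chr13:99382716-99382798: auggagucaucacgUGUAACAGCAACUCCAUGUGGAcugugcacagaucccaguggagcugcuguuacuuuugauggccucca
On chromosome 1, 100 bases separated Mir194-2 from Mir192, and on chromosome 13, 191 bases separated Mir194-1 from Mir215. The mature miR-194-5p was identical in both loci, so its reads cannot be divided between them. By contrast, miR-192-5p came from 1 gene and miR-215-5p from the other locus. The count table uses mouse names for rat cells, and how reads that matched more than 1 miRNA were counted was not given in the sources used here.

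In these exosomes all 5 rows were of low level. Together they had 65 reads for NC-Exo and 84 for HC-Exo, which was 633 RPM (95% Clopper-Pearson interval 489 to 807) and 631 RPM (503 to 781). The summed level was therefore nearly equal. Its log2 ratio, always given as HC-Exo over NC-Exo, was -0.0060, with a 95% interval of -0.49 to 0.48 by the exact binomial method. All intervals given here cover counting error only, as PCR copies of a molecule are counted as separate reads. In bulk exosome RNA, fewer vesicles that carry a miRNA and fewer copies per vesicle cannot be told apart. The balance among the rows was not equal, as miR-215-5p had the most reads of the 5 in NC-Exo and fewer reads than the other 5p rows in HC-Exo.

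For mmu-miR-215-5p, NC-Exo had 21 reads and HC-Exo 9 reads. These were levels of 205 RPM (127 to 313) and 67.6 RPM (30.9 to 128), and its rank fell from 184 to 291 of 635. The level was 3.03-fold lower in HC-Exo, with a log2 ratio of -1.60 (-2.91 to -0.41). Of the 340 miRNAs compared, those that reached 10 reads, 6 showed a lower log2 ratio. The opposite arm, miR-215-3p, had 0 reads in NC-Exo, which allows up to 29.2 RPM by a limit of 3 reads. HC-Exo had 2 reads of it, or 15.0 RPM. With both libraries at or under that limit, no ratio is given for it.

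For mmu-miR-192-5p, which has the seed of miR-215-5p, NC-Exo had 13 reads and HC-Exo 18. Its level was 127 RPM (67.5 to 217) without Ang II and 135 RPM (80.1 to 214) with it. The log2 ratio was 0.094 (-1.02 to 1.24), and 3 of the 6 other scalings put it just under 0. Thus the reads of miR-192-5p in both libraries were within counting error of each other, and the interval holds changes up to 2.02-fold lower and 2.37-fold higher.

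For mmu-miR-194-5p, the neighbour of both, NC-Exo had 17 reads and HC-Exo 39. Its level was 166 RPM (96.5 to 265) and 293 RPM (208 to 400). It was the most abundant of the 5 rows in HC-Exo, at rank 162. The log2 ratio was 0.82 (-0.034 to 1.74), a ratio of 1.77, with 0 just inside the interval, and 47 of the 340 miRNAs had a higher ratio.

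Of the liver miRNA miR-122-5p, NC-Exo held 14 reads and HC-Exo 16. Its level was 136 RPM (74.6 to 229) and 120 RPM (68.7 to 195), a log2 ratio of -0.18 (-1.31 to 0.96). It was close to miR-192-5p in both libraries, and in NC-Exo it had the same 14 reads as the muscle miRNA miR-206-3p. In HC-Exo miR-206-3p had 57 reads, well above the 16 of miR-122-5p.

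**Figure D1:**
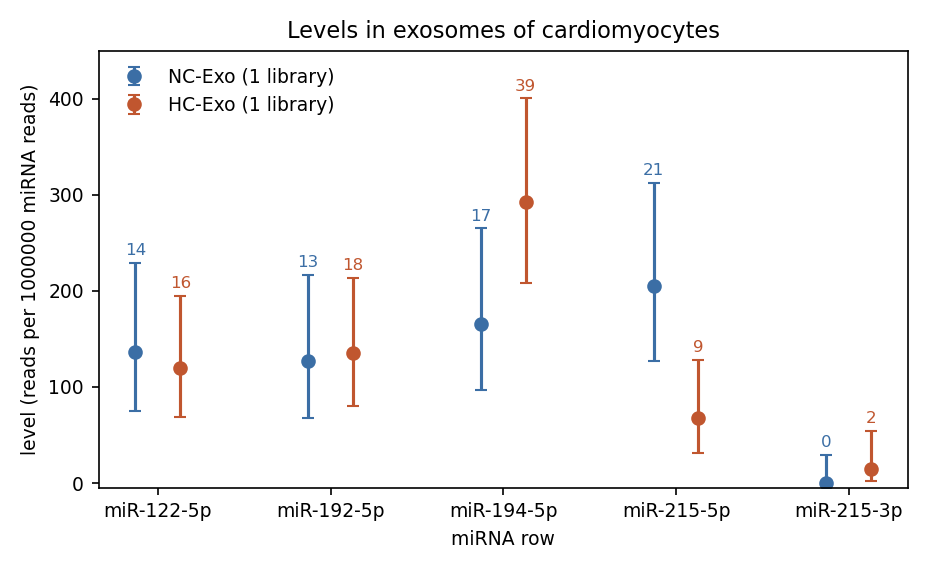
Level of each row in reads per 1000000 miRNA reads (vertical axis) in the NC-Exo and HC-Exo libraries. Points are the level in 1 library, bars the 95% Clopper-Pearson interval, or the limit of 3 reads where no read was counted, and the number over each bar is its reads. miR-215-5p went from 21 to 9 reads and miR-194-5p from 17 to 39, while miR-122-5p and miR-192-5p stayed between 13 and 18.

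The levels were ordered by reads within each library, without correction for length. The 3 sequences shown are 21 or 22 bases long, and that of miR-122-5p is not shown. Whether different miRNAs were recovered equally in the libraries was not tested, so the order is one of reads. In NC-Exo the order was miR-215-5p, miR-194-5p, miR-122-5p and miR-192-5p, and no neighbours in it differed beyond counting error. For instance, miR-194-5p had 44.7% of the reads it shared with miR-215-5p (95% Clopper-Pearson interval 28.6 to 61.7%). In HC-Exo the order was miR-194-5p, miR-192-5p, miR-122-5p and miR-215-5p. There miR-194-5p had 68.4% of the reads of itself and miR-192-5p (54.8 to 80.1%), an interval above an equal share. The next neighbours did not differ beyond counting error, with 47.1% (29.8 to 64.9%) for miR-122-5p beside miR-192-5p and 64.0% (42.5 to 82.0%) for miR-122-5p beside miR-215-5p.

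A difference of at least 2-fold was found for 1 of these 4 rows, and it was a lower level. Over the 340 miRNAs, 4.12% were at least 2-fold lower, 11.5% at least 2-fold higher and 15.6% past 2-fold in either direction. For 1 of the 4 rows, again miR-215-5p, the interval of the log2 ratio lay wholly below 0, as it did for 11.5% of the 340. For 68 of the 340 the interval lay wholly above 0. Intervals for counting error that exclude 0 were thus common between these libraries. With only 4 rows, these counts do not set them apart from the background. The median log2 ratio was -0.045 over the 4 rows and 0.098 over the 340. Ratios spread further at low reads. Among the 135 miRNAs with 100 reads or more, the log2 ratios ran from -0.77 to 1.10. Among the 107 miRNAs with 20 to 60 reads over both libraries, a span chosen to hold these rows, 3.74% were at least 2-fold lower and 18.7% at least 2-fold higher. In that span 1 miRNA had a lower ratio than miR-215-5p, and 24 had a higher ratio than miR-194-5p.

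**Figure D2:**
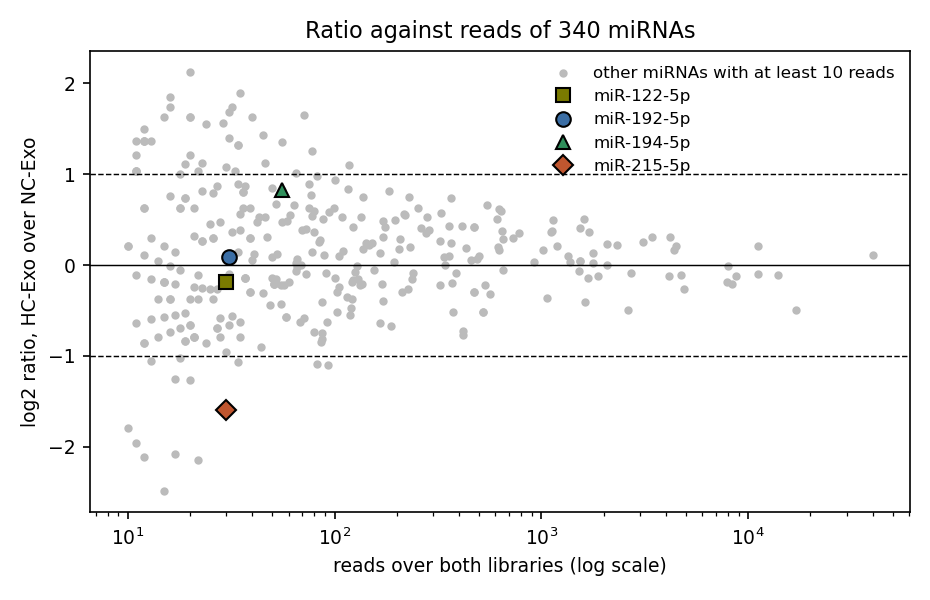
Log2 ratio between HC-Exo and NC-Exo, positive where HC-Exo was higher (vertical axis), against the reads over both libraries (horizontal, log scale) for the 340 miRNAs with at least 10 reads. Each point is 1 miRNA and dashed lines mark 2-fold. miR-215-5p, at -1.60, lies under the lower line and the other 3 marked rows lie between the lines, in a span of reads where the grey points spread widely.

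The seed-sharing miR-192-5p and miR-215-5p were then compared with each other. In NC-Exo miR-215-5p gave 61.8% of the 34 reads of the pair (43.6 to 77.8%), and in HC-Exo 33.3% of 27 reads (16.5 to 54.0%). The more abundant of the pair was thus miR-215-5p in NC-Exo and miR-192-5p in HC-Exo, although both intervals hold an equal share. The log2 ratio of miR-215-5p was lower than that of miR-192-5p by 1.69, a difference of -1.69 with an exact conditional interval of -3.42 to 0.0025 that just reaches 0. Summed over the shared seed, the pair had 331 RPM in NC-Exo (229 to 463) and 203 RPM in HC-Exo (134 to 295). For the sum the log2 ratio was -0.71 (-1.49 to 0.063), under 2-fold and with 0 inside the interval.

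The neighbours in the genome were compared in the same way. Between miR-215-5p and miR-194-5p the log2 ratios differed by -2.42 (-4.00 to -0.89). It was the largest of the 6 differences among these 4 rows and the only one whose interval excluded 0. These were the rows with the lowest and highest ratios of the 4, and the share among pairs of other miRNAs was not computed. miR-194-5p made up 44.7% of the reads of these 2 rows in NC-Exo and 81.2% in HC-Exo (67.4 to 91.1%). Between miR-192-5p and miR-194-5p the difference was -0.73 (-2.18 to 0.74), which is within counting error. That of miR-215-5p from miR-122-5p, which has no locus in common with it, was -1.42 (-3.15 to 0.29). These differences do not depend on how the libraries are scaled, because both rows of a difference share the same totals.

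Since both loci give miR-194-5p, its reads were also set beside those of miR-192-5p and miR-215-5p together. NC-Exo had 17 reads of miR-194-5p beside 34 reads of the other two, a ratio of 0.50. In HC-Exo there were 39 beside 27, a ratio of 1.44. The share of miR-194-5p among these reads was 33.3% (20.8 to 47.9%) in NC-Exo and 59.1% (46.3 to 71.0%) in HC-Exo. On the log2 scale the difference was 1.53 (0.34 to 2.74), and how often other miRNAs differ as much was not computed. Over all 3 miRNAs the sum was 497 RPM for NC-Exo and 496 RPM for HC-Exo. Between these 2 libraries the estimates of miR-194-5p and miR-215-5p thus lay on opposite sides of 0 while the sum was almost equal.

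**Figure D3:**
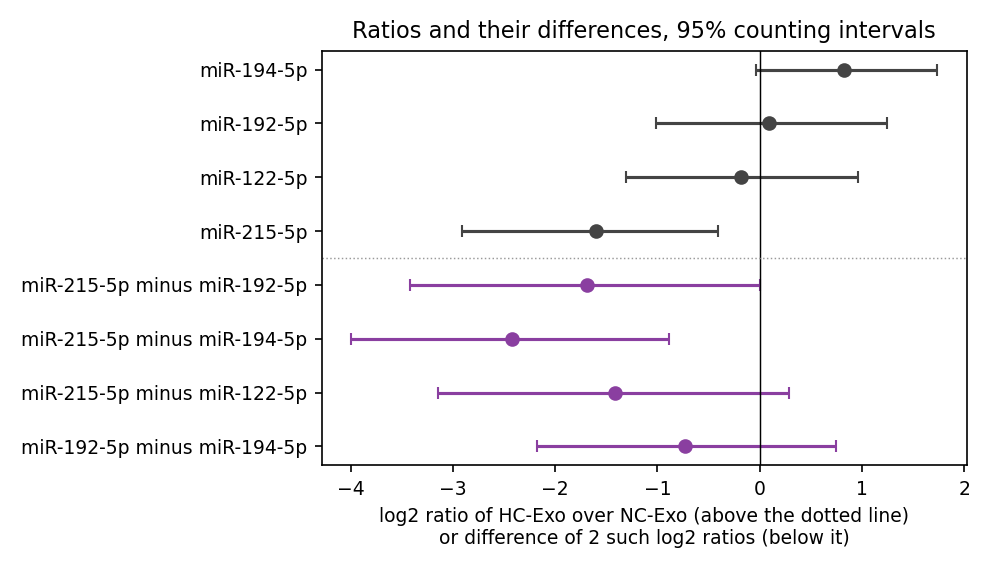
Log2 ratios, positive where HC-Exo was higher, for the 4 rows with at least 10 reads (above the dotted line) and differences between 2 such ratios (below it), on a log2 horizontal axis. Points are estimates from 1 library per condition and bars 95% exact intervals for counting error. The ratio of miR-215-5p and its difference from miR-194-5p, -2.42, lie wholly under 0, and the difference from miR-192-5p reaches 0.0025.

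The levels were set beside markers of other cell types. The 7 muscle miRNAs summed to 168954 RPM in NC-Exo and 184327 RPM in HC-Exo, which was 267 and 292 times the sum of the 5 rows. Of these, 3 were at least 2-fold higher in HC-Exo and 0 lower, beside the 11.5% and 4.12% of all 340. Among them was the heart miRNA miR-208a-3p, encoded within a myosin gene, at 87.7 RPM for NC-Exo and 180 RPM for HC-Exo (log2 ratio 1.04, -0.12 to 2.33). It was the lowest of the 7 muscle miRNAs in both libraries. The liver and gut 5p rows, at 127 to 205 RPM, were all above it in NC-Exo. In HC-Exo, at 67.6 to 293 RPM, they lay on both sides of it. The endothelial miR-126a arms summed to 91114 and 66817 RPM. That sum was set by miR-126a-5p, with a log2 ratio of -0.49 (-0.54 to -0.45), whereas miR-126a-3p had 0.21 (0.041 to 0.38).

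Sums of markers of other epithelia and organs were lower than the sum of the 5 rows, though not than each row. Of the 7 epithelial markers, 6 had a row, and these summed to 97.5 RPM in NC-Exo (46.7 to 179) and 67.6 RPM in HC-Exo (30.9 to 128). None reached 10 reads over both libraries. The 4 of 5 neural markers with a row summed to 58.5 and 30.0 RPM, again with none at 10 reads. None of the 4 pancreas markers was among the rows used here. In HC-Exo, the interval of miR-194-5p (208 to 400 RPM) lay above that of the epithelial sum. The interval of miR-192-5p (80.1 to 214 RPM) overlapped that of the epithelial sum, although its level of 135 RPM was higher. In NC-Exo miR-192-5p, at 127 RPM, and miR-194-5p, at 166 RPM, were within the interval of the epithelial sum. The level of miR-215-5p was above that interval in NC-Exo, at 205 RPM, and equal to the epithelial sum in HC-Exo, at 67.6 RPM. For miR-122-5p the levels of 136 and 120 RPM were within the interval of the epithelial sum in both libraries.

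The blood list had a higher sum than the 5 rows, and most of it was from 1 member. The 7 of 8 blood markers with a row, counting the identical miR-486a-5p and miR-486b-5p once, summed to 7904 RPM in NC-Exo and 8554 RPM in HC-Exo. That sum was 12.5 and 13.6 times the sum of the 5 rows. Of it, miR-486a-5p gave 6374 RPM in NC-Exo and 6571 RPM in HC-Exo, while miR-142a-3p had 2 reads in each library. The sum thus mainly gives the level of miR-486a-5p, and whether those reads came from blood cells was not tested. None of the 5 distinct blood markers that reached 10 reads was past 2-fold, beside 15.6% of all 340. With only 5 markers, this does not set them apart from the background. Their log2 ratios ranged from 0.030 for miR-150-5p to 0.75 for miR-223-3p (0.22 to 1.31), the only 1 of the 5 whose interval lay wholly above 0. The red-cell miRNA miR-451a, with 17 reads for NC-Exo and 35 for HC-Exo, gave a log2 ratio of 0.67 (-0.21 to 1.59), and was nearest in level to miR-194-5p. The part of blood RNA in the reads of miR-194-5p was not tested.

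**Figure D4:**
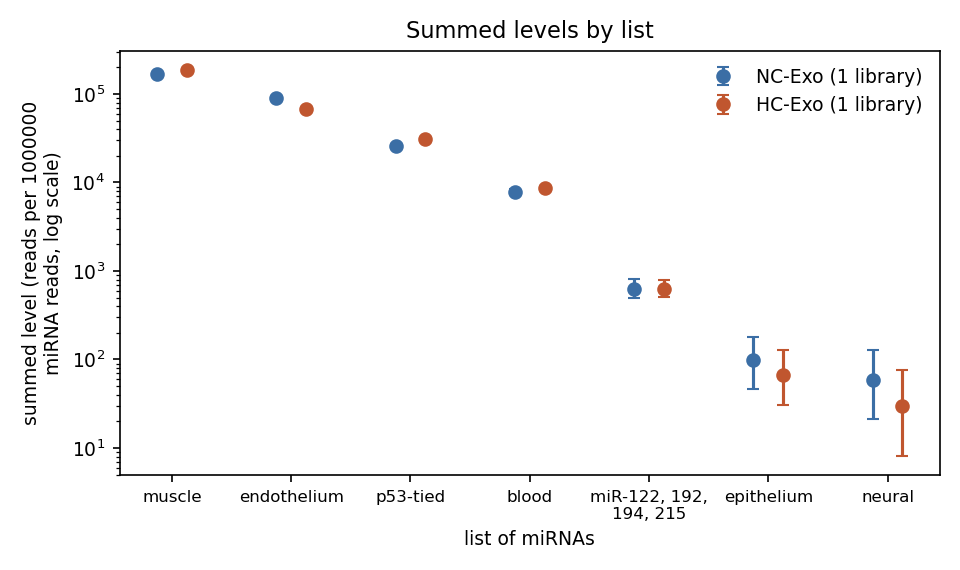
Summed level of each list of miRNAs in reads per 1000000 miRNA reads (vertical, log scale) in the NC-Exo and HC-Exo libraries. Points are sums in 1 library and bars 95% Clopper-Pearson intervals, which are smaller than the points at high levels. The 5 liver and gut rows sum to 633 and 631 RPM, above the epithelial and neural lists. They lie under the blood list, most of which is miR-486a-5p.

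As miR-192, miR-194 and miR-215 are known as p53-responsive, other miRNAs tied to p53 were listed. Of the 10, 7 reached 10 reads and 0 of these were past 2-fold in either direction, beside the 15.6% of all 340. Their median log2 ratio was 0.021. The best known p53 target among them, miR-34a-5p, had 66 reads without Ang II and 106 with it, a log2 ratio of 0.31 (-0.15 to 0.77). For miR-34c-3p, 38 and 33 reads gave -0.58 (-1.30 to 0.13). The highest ratio of the 7 was that of miR-16-5p, whose processing p53 is known to aid, with 115 and 249 reads and a log2 ratio of 0.74 (0.41 to 1.07). For miR-143-3p, at 0.31 (0.22 to 0.40), the interval also lay wholly above 0, as it did for 68 of the 340. None of the 7 was as low as miR-215-5p. The other 3 were at 0 reads in NC-Exo. With Ang II they had 8 reads for miR-15a-5p, 5 for miR-34b-5p and 4 for miR-34c-5p, the opposite arm of miR-34c-3p. In that order, the lower ends of their log2 ratio intervals were 0.40, -0.50 and -0.98, so that of miR-15a-5p lay above 0.

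The miRNAs nearest in level over the 2 libraries were found by distance on the log2 RPM scale. For miR-122-5p these were miR-107-3p and miR-193b-3p, both with the same 14 and 16 reads, and miR-330-3p. For miR-192-5p they were miR-330-3p, miR-379-3p and miR-345-5p, at distances of 0.13 to 0.19. For miR-194-5p they were miR-451a, miR-361-3p and miR-1a-1-5p, at 0.15 to 0.26. The nearest to miR-215-5p were farther off, with 0.45 for miR-673-5p, 0.51 for miR-125b-1-3p and 0.55 for miR-18a-3p. With 2 libraries, such likeness covers only the level in each.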

How the data were processed

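The authors deposited raw read counts per mature miRNA for 1 NC-Exo and 1 HC-Exo library. Per the labels, an Illumina small RNA kit was used, and the submitters' processing notes name Bowtie2 and the builds mm9 and GRCm38 without a role. Trimming and the treatment of reads that match several miRNAs were not given in the sources used here. The deposited normalized signal is 12.1 per read in NC-Exo and 9.23 in HC-Exo, apart from 1 row, and served as an alternative scaling. A deposited table of the authors' scaled counts, log2 fold changes, p-values and q-values was not used.

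Counts were divided by library totals. Clopper-Pearson intervals were used for levels, the exact binomial share of the reads for ratios, and the exact conditional odds ratio for differences of ratios, all at 95%. Those for ratios and differences were tried on simulated data that held counting error only. That trial does not cover variation between cultures or libraries. Replicates were lacking, so no p-value was computed. In a ratio, 3 reads replaced any lower count, and ratios were compared over miRNAs with at least 10 reads in both libraries together. The members and lists were chosen with earlier results of these data known. Named miRNAs were every member, the 3 nearest to each in level (0.5 reads added) and miRNAs of the marker lists. Only 216 of the 340 compared miRNAs matched a rat RefSeq mature sequence by name and arm, so a comparison with other seed-sharing pairs would be void and was left out. Intervals were computed with scipy 1.17.1 in Python 3.11.15, and scaling factors were taken from edgeR 4.0.16 and DESeq2 1.42.0 in R 4.3.3.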

Additional observations from a re-analysis of the deposited data

How the results depend on the processing

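No paired analysis was possible because each condition had a single library, nor could a replicate be left out. The 6 other scalings shifted every log2 ratio down, by 0.013 (the authors' normalized values) to 0.12 (upper-quartile factors), so they moved miR-215-5p away from 0, to between -1.61 and -1.72. The ratio of miR-192-5p lay between -0.030 and 0.080 under them, and those of miR-194-5p and miR-122-5p kept their signs. With 5 reads added to both libraries, the log2 ratio was -1.27 for miR-215-5p, 0.62 for miR-194-5p and -0.022 for miR-192-5p, and the difference of miR-215-5p from miR-192-5p was -1.25. Summing miR-215-5p with miR-192-5p gave -0.71, under 2-fold. Chosen after the data were examined, summing miR-215-5p with miR-194-5p gave -0.039 and summing all 5 rows gave -0.0060, both outside the counting interval of miR-215-5p, and the former also outside that of miR-194-5p. Of 42 values of the 4 ratios under alternatives, 39 stayed within their counting interval. The shifts from scaling were small beside the width of these intervals, so for the other scalings this outcome was set in advance.
Totals without the 10 most abundant miRNAs raised levels in NC-Exo and HC-Exo to 319 and 263 RPM for miR-122-5p, 296 and 296 for miR-192-5p, 388 and 641 for miR-194-5p, and 479 and 148 for miR-215-5p, since the totals are smaller. The number of miRNAs at least 2-fold higher and lower, 39 and 14 of 340, was 7 and 3 with at least 10 reads in each library, 5 and 2 with at least 50 reads over both, and 20 and 4 with 20 to 60 reads (chosen afterwards). The first 2 filters leave out miRNAs of low reads. Without a filter 41 of 635 were higher and 26 lower. At least 10 reads in each library leaves out miR-215-5p, and at least 50 reads leaves out all but miR-194-5p.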
